A study of Mus musculus with 8 samples.

Results

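The proteasome is the large protease complex that degrades proteins tagged with ubiquitin, and 39 genes that encode its subunits and closest helpers were followed here in mouse cells exposed to auranofin, an oral gold compound used in rheumatoid arthritis. The genes were taken by symbol from both deposited expression tables, with no filter on their measured values. The list was chosen with earlier results of these data known, so it is not independent evidence. All 39 were found among the 18645 genes of the hepatic stellate cell (HSC) table and the 17408 genes of the bone marrow-derived macrophage (BMDM) table. They comprise 7 core alpha subunits, 7 core beta subunits, 3 immunoproteasome subunits, 9 base subunits, 8 lid subunits and 5 activators or assembly factors. The study used 8 RNA sequencing libraries, 2 in each of 4 groups, all from C57BL/6 mice. Primary activated HSCs, which make the collagen of the fibrotic liver and were isolated on a density gradient, were cultured for 12 h with vehicle or with auranofin at 0.03 µM. BMDMs, which were grown from marrow of 8-week-old male mice with macrophage colony-stimulating factor, received ATP at 1 mM and lipopolysaccharide (LPS) at 100 ng/mL in all 4 libraries, including the controls, and vehicle or auranofin for 1 h. The BMDM dose is 0.1 µM in the sample labels and 0.3 µM in the study's figure legend. Nothing in the labels says whether 2 libraries of a group came from separate animals or cultures, so their spread may be technical.

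The core particle of the proteasome is a barrel of stacked rings. Its outer rings hold the alpha subunits, which gate the entrance, and its inner rings hold the beta subunits, of which Psmb5 (chymotrypsin-like activity), Psmb6 (caspase-like) and Psmb7 (trypsin-like) cut peptides. Interferon induces the immunoproteasome subunits Psmb8, Psmb9 and Psmb10, which replace Psmb5, Psmb6 and Psmb7 in newly built particles and change which peptides are made for MHC class I. A regulatory particle caps the barrel. Its base contains the ATPases Psmc1 to Psmc6, which unfold substrates, and its lid contains Psmd14, the deubiquitinase that removes ubiquitin chains. The transcription factor Nfe2l1 induces proteasome genes when proteasome activity is short, acting through antioxidant response element-like sites, while interferon acts on the immunoproteasome genes through gamma-activated (GAS) and interferon-stimulated response elements (ISRE). Auranofin is known as an inhibitor of thioredoxin reductase, and it has also been described as an inhibitor of proteasome-associated deubiquitinases.

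Promoter sequence is shown for the genes whose promoters hold such sites, so that the results below can be read beside it. RefSeq promoters of 300 bases (250 before and 50 after a gene's start, GRCm38) were given for 33 of the 39 genes, as 36 promoters. The antioxidant response element core TGACNNNGC, searched on both strands, was found in 5 of the 36 (13.9%), and in 12.4% of all 32851 promoters of the same length. It lies upstream of the start in Psmb5 (chr14:54618009-54618067, minus strand), Psmc6 (chr14:45329574-45329630, plus strand) and Psmd12 (chr11:107479278-107479314, plus strand), directly upstream of it in Psmb6 and across it in Psme4, and no sequence is shown for these last genes. In the lines that follow, each sequence reads 5′ to 3′ along the gene's strand and capitals mark the match.
Psmb5: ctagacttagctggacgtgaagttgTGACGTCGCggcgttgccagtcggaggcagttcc
Psmc6: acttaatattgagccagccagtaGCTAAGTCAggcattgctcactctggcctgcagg
Psmd12: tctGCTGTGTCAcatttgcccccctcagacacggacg

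The GAS core TTCNNNGAA was found in 2 of the 36 promoters (5.56%, and 8.3% of all promoters), those of Psmb8 and, past the start, Psmd2. The Psmb8 match is shown because this gene belongs to the interferon-inducible group described below (chr17:34198073-34198131, plus strand).
Psmb8: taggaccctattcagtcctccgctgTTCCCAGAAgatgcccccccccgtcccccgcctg
The ISRE letters (GAAA, any 2 bases, GAAA) were found in 3 promoters (8.33%, and 3.44% of all promoters), those of Psmb3, Psmd4 and Psme1, the last of them past the start. The heat shock element letters (GAA, any 2 bases, TTC, any 2 bases, GAA) were found in 0 of the 36 promoters and in 0.603% of all promoters. All motifs were searched on both strands, no match overlapped a match of another motif, and the shares describe letters in a window, not binding.

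Values are FPKM, fragments of a gene per kilobase of transcript and per size of the library, so that levels of different genes can be compared. The libraries held an estimated 29800000 to 39400000 fragments in HSCs and 27500000 to 34900000 in BMDMs. In the 33 proteasome genes with 1 RefSeq transcript, this gave 498 to 14700 fragments per library in HSCs, a counting error of 0.825 to 4.48%, and 1419 to 17157 fragments in BMDMs, an error of 0.763 to 2.65%. Counting error does not cover differences between cultures. The BMDM auranofin libraries stood apart from each other: 751 of 9232 genes differed by at least 2-fold between them, compared with 36 between the BMDM vehicle libraries, and with 41 and 37 between the HSC auranofin and vehicle libraries. BMDM results are therefore given for each auranofin library as well as for both. All 8 macrophage markers were listed in both tables, and all 8 stellate or myofibroblast markers were listed in HSCs. In the HSC cultures, the macrophage markers summed to 7092 and 7103 FPKM with vehicle, then to 6970 and 6967 FPKM with auranofin, with Lyz2 alone at 5379 to 5554 FPKM. Clec4f was called higher and Mrc1 lower with auranofin. The stellate markers summed to 4020 and 4148 FPKM with vehicle, then to 3473 and 3552 FPKM with auranofin, and Acta2, a marker of activated stellate cells, was called lower. The HSC libraries thus contain transcripts of macrophages as well as of stellate cells. The 6 listed endothelial markers summed to 178 to 190 FPKM, with Stab2 and Clec4g called lower. Cdh5 and Kdr were higher in both auranofin libraries (log2 fold changes 0.14 and 0.17) but were not called, and Pecam1 and Lyve1 had overlapping groups. Hepatocyte markers (3 of 6 listed) summed to at most 1.57 FPKM and lymphocyte markers (2 of 6 listed) to at most 0.0629 FPKM. In such bulk samples, fewer cells of a type and less RNA per cell cannot be told apart. The BMDM libraries contained macrophage markers at 6517 to 7560 FPKM and stellate markers at 5.4 to 10.2 FPKM. The macrophage sums of the HSC libraries lay within that BMDM range, though the cell types were normalized separately. HSCs below therefore stands for these mixed cultures, and changes in them cannot be assigned to stellate cells or macrophages alone.

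In the vehicle libraries, HSCs contained all 39 genes between 14.1 ± 0.108 FPKM (SD, n = 2) for Psmb9 and 239 ± 8.46 FPKM for Psmd8, a lid subunit, with a median of 79.1 FPKM, where the median of all 12149 genes tested was 10.9 FPKM. The 7 core beta subunits, which are built into the particle in equal numbers, had vehicle levels from 96.3 to 150 FPKM, and the 9 base subunits from 60.6 to 135 FPKM. The 3 immunoproteasome subunits were among the 5 lowest of the 39 genes in HSCs. In BMDMs, the highest member was Psme2, a subunit of the interferon-inducible activator PA28, at 475 ± 2.43 FPKM. Psmb6 (334 ± 11 FPKM), Psme1 (289 ± 3.14 FPKM), the partner of Psme2, Psmd8 (266 ± 14.2 FPKM) and Psmb8 (259 ± 2.41 FPKM) followed. The level of Psmd8 and that of Psmb8 differed by less than the spread of Psmd8. The tables were normalized separately, so the ratio of their vehicle levels is given only as a description: it was 10.1 for Psmb9, 6.64 for Psmb8, 6.00 for Psme2, 5.0 for Psmb10 and 4.11 for Psme1, BMDM over HSC. It was 2.23 for Psmb6, and between 0.534 and 1.79 for the other 33 genes. The 5 genes with the highest ratios are the interferon-inducible ones. The BMDMs had received LPS and ATP and the HSCs had not, and this cannot be told apart from cell type.

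In HSCs, 10 of the 39 proteasome genes rose with auranofin at an adjusted p under 0.05 and 0 fell, while 1.24% and 1.09% of all genes tested were called higher and lower (limma on log2(FPKM + 1), Benjamini-Hochberg over 12149 genes). The changes were small, from 16.8% to 34.6% in the means of the 10 genes, and 0 of the 39 reached 1.5-fold with an unadjusted p under 0.05 in either direction, as 0.428% and 0.148% of all genes did upward and downward. At an unadjusted p under 0.05, 30 were higher (8.57% of all genes) and 1 was lower (9.22% of all genes). Both auranofin libraries lay above both vehicle libraries for 33 of the 39 genes, as for 26.2% of all genes, and below for Psmb8 and Psmb9, as for 23.9% of all genes. The median log2 fold change was 0.17 over the 39 genes and 0.0049 over all genes tested. Taken singly, auranofin replicate 1 had a median of 0.19 and auranofin replicate 2 one of 0.14. Together the 39 genes made up 0.771% and 0.757% of the FPKM of the vehicle libraries, and 0.865% and 0.836% of that of the auranofin libraries. The number of calls depended on the estimate of variance and on single libraries. It was 1 when genes of low level were kept (0.215% of all genes), 2 without a trend in the variance (0.7%) and 0 with each gene's own variance (0%, with 17 higher at an unadjusted p under 0.05). It was 16 without vehicle replicate 1 (2.21% of all genes), 2 without auranofin replicate 1 (0.774%) and 6 without auranofin replicate 2 (0.98%). A log2 fold change above 0 was found for 35 of the 39 genes (52.2% of all genes), and for 33 to 37 under these settings.

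**Figure D1:**
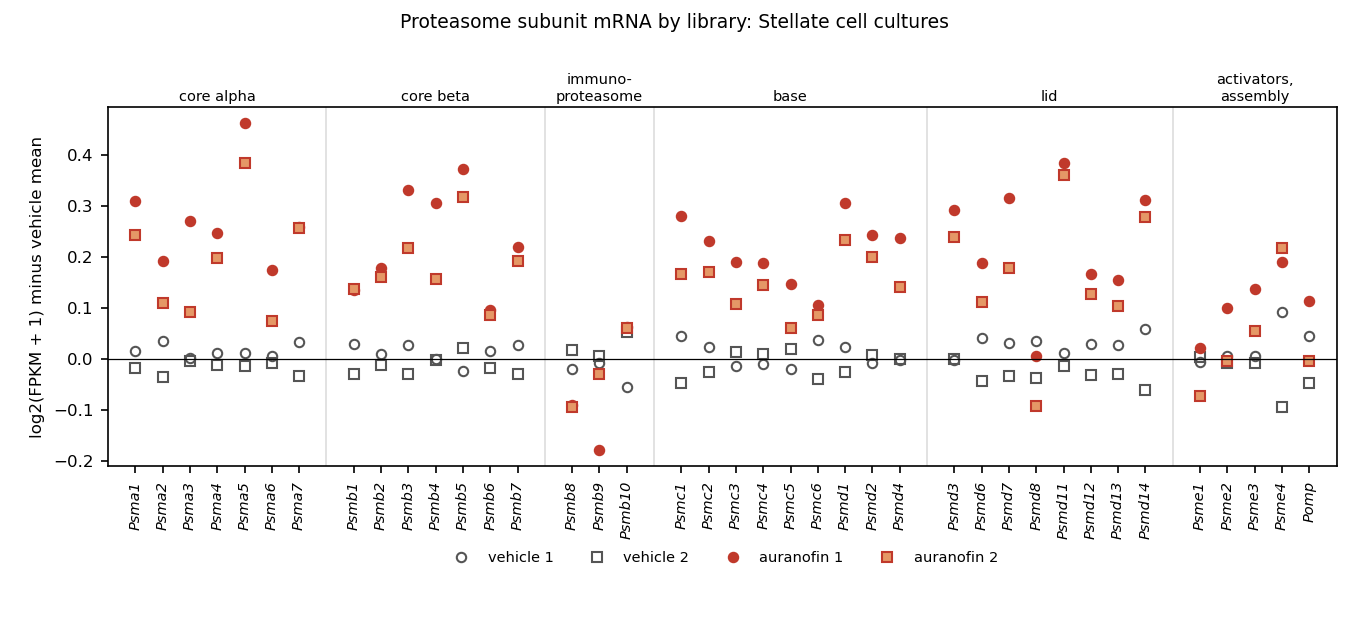
Level of each proteasome gene in the 4 HSC libraries, as log2(FPKM + 1) minus the mean of the vehicle libraries, with genes ordered by their place in the particle. Circles are replicate 1 and squares replicate 2, open for vehicle and filled for auranofin. Filled symbols lie above both open symbols for 33 genes, and below them for Psmb8 and Psmb9.

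All 7 core alpha subunits had both auranofin libraries above both vehicle libraries (26.2% of all genes), and 4 of them rose (1.24% of all genes). Psma5 (chr3:108256926-108279952) changed most of all 39 genes. Its level was 73.1 and 71.9 FPKM with vehicle, then 100.3 and 94.9 FPKM with auranofin, a log2 fold change of 0.42 ± 0.04 (SE, adjusted p = 0.0101). Psma1 was at 86.7 and 84.7 FPKM with vehicle, then 107 and 102 FPKM with auranofin (0.28, adjusted p = 0.0291). Psma7 was at 144 and 138 FPKM, then 169 in both auranofin libraries (0.26, adjusted p = 0.0307), and Psma4 at 101 and 99.5 FPKM, then 119 and 115 FPKM (0.22, adjusted p = 0.0422). In each of these genes the auranofin libraries were high and the groups did not overlap. Psma4 overlaps the gene AY074887, whose level was at most 0.048 FPKM in HSCs. The lowest log2 fold change of the ring, 0.13 for Psma6, did not pass the adjusted test (adjusted p = 0.216). Psma6 was at 101 and 100 FPKM with vehicle, then 114 and 106 FPKM with auranofin.

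Among the 7 core beta subunits, both auranofin libraries again exceeded both vehicle libraries in every gene (26.2% of all genes). The adjusted test was passed by 1 of them (1.24% of all genes). This was Psmb5 (chr14:54614120-54617995), the chymotrypsin-like catalytic subunit, at 95.6 and 98.8 FPKM with vehicle, then 126 and 121 FPKM with auranofin (log2 fold change 0.35 ± 0.04, adjusted p = 0.0144). The other catalytic subunits moved less. Psmb7 was at 112 and 108 FPKM, then 129 and 126 FPKM (0.21, adjusted p = 0.0545), and Psmb6 at 151 and 148 FPKM, then 160 and 159 FPKM (0.09, adjusted p = 0.223). Psmb5 and Psmb6 both hold the antioxidant response element letters in their promoters, and they had the highest and the lowest log2 fold change of the ring. The other genes with these letters, Psmc6, Psmd12 and Psme4, had log2 fold changes of 0.10, 0.15 and 0.20, and none of these 3 passed the adjusted test.

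None of the 3 immunoproteasome subunits passed the test, and both of those in the MHC region had log2 fold changes below 0. Psmb8 (chr17:34198195-34201454) was at 38.5 and 39.6 FPKM with vehicle, then 36.7 and 36.5 FPKM with auranofin, and Psmb9, its neighbour in the MHC region (chr17:34182030-34187330), at 14.0 and 14.2 FPKM, then 12.3 and 13.8 FPKM. Psmb10 was at 39.3 and 42.4 FPKM, then 42.7 and 42.6 FPKM. Auranofin values were lower without overlap in Psmb8 and Psmb9 and higher by less than the spread between vehicle libraries in Psmb10, and the log2 fold changes of -0.09, -0.10 and 0.06 did not pass the test (adjusted p = 0.272, 0.428 and 0.539). The ratio of each subunit to the one it replaces does not depend on library scaling. Psmb8 over Psmb5 was 0.403 and 0.401 with vehicle and 0.290 and 0.301 with auranofin, a difference of -0.44 in log2 ratio. Psmb9 over Psmb6 was 0.0926 and 0.0958, then 0.0771 and 0.0867 (difference -0.20), and Psmb10 over Psmb7 was 0.350 and 0.392, then 0.332 and 0.338 (difference -0.14). All 3 ratios were lower in both auranofin libraries, with an exact permutation p of 0.333 each (two-sided, n = 2 against 2), which is the smallest this design allows, so none could pass a threshold. The immunoproteasome subunits contributed 20.4% and 21.3% of the FPKM of the 6 catalytic genes with vehicle and 18.1% and 18.6% with auranofin. The part of macrophage transcripts in these levels was not tested. Both marker sums, macrophage and stellate, were lower in both auranofin libraries, as given above, but single markers went both ways. Among macrophage markers, Clec4f and Marco had log2 fold changes above 0 (0.27 and 0.09) and the others below 0. Among stellate markers, only Lrat was above 0 (0.22).

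The 9 base subunits had higher values in both auranofin libraries without exception (26.2% of all genes), and 2 rose (1.24% of all genes). These 2 are large scaffold subunits that serve as docking sites for other proteins. Psmd1 was at 64.0 and 61.8 FPKM with vehicle, then 78.0 and 74.1 FPKM with auranofin (log2 fold change 0.27, adjusted p = 0.0394), and it overlaps Htr2b, which was at most 0.572 FPKM in HSCs. Psmd2 was at 135 and 136 FPKM, then 161 and 156 FPKM (0.22, adjusted p = 0.0375). None of the 6 ATPases passed the test, with log2 fold changes from 0.10 to 0.22, and Psmc6 was the lowest at 62.2 and 58.9 FPKM, then 65.2 and 64.4 FPKM (0.10, adjusted p = 0.29). Of the 8 lid subunits, 3 rose (1.24% of all genes). Psmd11, which is known to promote assembly of the full particle, was at 42.8 and 42.0 FPKM with vehicle, then 55.6 and 54.8 FPKM with auranofin (0.37 ± 0.04, adjusted p = 0.0101). The deubiquitinase Psmd14 was at 52.5 and 48.3 FPKM, then 62.7 and 61.3 FPKM (0.30, adjusted p = 0.0469), and Psmd3 at 61.8 in both vehicle libraries, then 75.9 and 73.2 FPKM (0.27, adjusted p = 0.0269). Psmd8 was the exception in the lid. It was at 245 and 233 FPKM with vehicle, then 240 and 224 FPKM with auranofin, with overlapping groups, and its log2 fold change of -0.04 became 0.01 without auranofin replicate 2.

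None of the 5 activators and assembly factors passed the test in HSCs, and their median log2 fold change was 0.06. The PA28 subunits Psme1 (70.1 and 70.6 FPKM, then 71.4 and 66.9 FPKM) and Psme2 (79.5 and 78.7 FPKM, then 84.9 and 78.9 FPKM) had auranofin values on both sides of, or close to, the vehicle values. The nuclear activator Psme3 was at 31.3 and 31.0 FPKM, then 34.4 and 32.4 FPKM. Psme4, the activator PA200, was at 19.6 and 17.1 FPKM, then 21.1 and 21.5 FPKM. Its log2 fold change of 0.20 exceeded its vehicle spread but did not pass the adjusted test (adjusted p = 0.204). Psme4 overlaps Erlec1, which reached 13.9 FPKM in HSCs and 6.11 FPKM in BMDMs. Psme1 overlaps Emc9, which reached 9.29 and 4.05 FPKM, and the part of these overlaps was not tested. Pomp, the chaperone that closes the core particle during assembly, was at 117 and 110 FPKM, then 123 and 113 FPKM, with overlapping groups. Over the subcomplexes, median log2 fold changes were 0.22 in the alpha ring, 0.21 in the beta ring, 0.19 in the base, 0.20 in the lid and -0.09 in the immunoproteasome subunits. The differences between subcomplexes were not tested.

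In LPS/ATP-treated BMDMs, 0 of the 39 genes passed the adjusted test in either direction (limma, Benjamini-Hochberg over 9232 genes), and 0 had an unadjusted p under 0.05, where 0.0108% of all genes were called higher, 0 lower, and 0.314% and 0.217% were higher and lower at an unadjusted p under 0.05. The 2 auranofin libraries gave different values for the same genes. In auranofin replicate 1, 16 of the 39 genes were at least 1.5-fold above the vehicle mean (15.2% of all genes) and 2 at least 1.5-fold below (8.07% of all genes). In auranofin replicate 2, all 39 genes lay within 1.2-fold of the vehicle mean, as did 96.7% of all genes, with log2 differences between -0.07 and 0.14. The median over the 39 genes was 0.52 in replicate 1, where that of all genes tested was 0.18, and 0.05 in replicate 2, where that of all genes was 0.0049. Replicate 1 exceeded both vehicle libraries in 31 genes (64% of all genes) and lay below both in 6 (29.6% of all genes). Both auranofin libraries exceeded both vehicle libraries in 19 genes (26.3% of all genes), and both lay below in 0 (12.6% of all genes). A log2 fold change above 0 was found in 34 genes (66.1% of all genes), or in 29 after centring each library on its median (49.3% of all genes). Without auranofin replicate 2, the fit called 30 genes higher and 5 lower, with 44.9% and 20% of all genes called, on the assumption that the lone library varied like the vehicle pair. Without auranofin replicate 1 it called 0 in either direction (0.065% and 0.0758% of all genes), with 5 higher at an unadjusted p under 0.05.

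**Figure D2:**
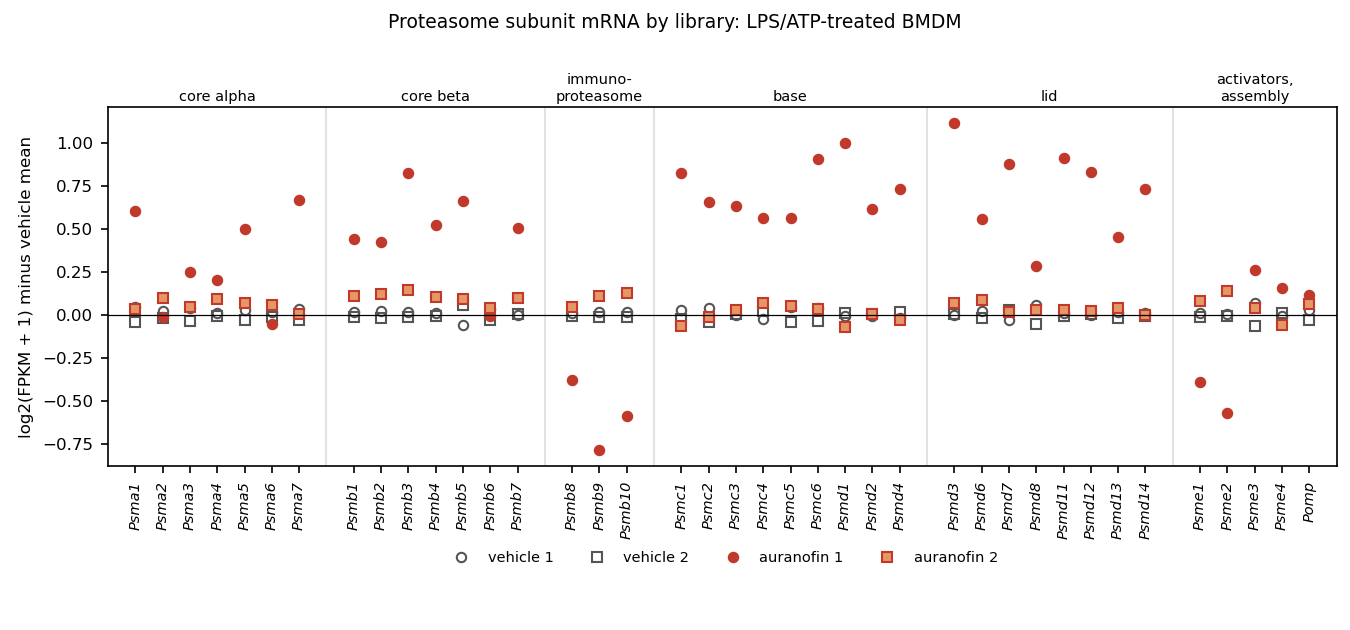
Level of each proteasome gene in the 4 LPS/ATP-treated BMDM libraries, as log2(FPKM + 1) minus the mean of the vehicle libraries. Circles are replicate 1 and squares replicate 2, open for vehicle and filled for auranofin. The filled squares stay between -0.07 and 0.14, while the filled circles range from -0.79 (Psmb9) to 1.11 (Psmd3).

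The values of auranofin replicate 1 differed by subcomplex. The lid and the base of the regulatory particle were highest, with medians of 0.78 and 0.66 on the log2 scale. Psmd3 had the highest log2 difference of the 39. It was at 32.9 and 33.0 FPKM with vehicle, 72.4 FPKM in replicate 1 with auranofin and 34.6 FPKM in replicate 2. Psmd11 was at 53.2 and 52.6 FPKM, then 100.2 and 54.0 FPKM, and the deubiquitinase Psmd14 at 48.9 and 48.4 FPKM, then 81.3 and 48.5 FPKM. In the base, the scaffold Psmd1 was at 50.9 and 51.5 FPKM, then 103 and 48.8 FPKM, and it overlaps Htr2b, which reached 5.73 FPKM in BMDMs. Psmc6, an ATPase, was at 46.7 and 44.2 FPKM, then 85.9 and 46.5 FPKM, and Psmc5, another ATPase, at 60.3 and 56.8 FPKM, then 86.8 and 60.6 FPKM. In all of these genes replicate 1 was high and replicate 2 within 5.08% of the vehicle mean. Psmd8 again had the lowest log2 difference of the lid subunits, at 277 and 256 FPKM, then 325 and 272 FPKM. The beta ring had a median of 0.50 in replicate 1 and the alpha ring 0.25. Psmb3 had the highest log2 difference of the beta subunits, at 87.8 and 86.0 FPKM, then 155 and 96.0 FPKM. Psmb5 was at 53.0 and 57.7 FPKM, then 87.9 and 59.0 FPKM. Psmb7 was at 105 and 106 FPKM, then 150 and 113 FPKM. Psma7, with the highest log2 difference of the alpha subunits, was at 89.0 and 85.2 FPKM, then 139 and 87.4 FPKM. Not every core gene was high in replicate 1. Psmb6 was at 342 and 326 FPKM, then 332 and 343 FPKM, and Psma6 at 182 and 178 FPKM, then 173 and 188 FPKM, and the sign of both log2 fold changes turned from above to below 0 after centring on the median.

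The immunoproteasome subunits and PA28 had the lowest log2 differences in auranofin replicate 1. Psma6, given above, also lay below both vehicle libraries there, with a log2 difference of -0.06. Psmb8 was at 261 and 258 FPKM with vehicle, 199 FPKM in replicate 1 and 267 FPKM in replicate 2. Psmb9 was at 144 and 141 FPKM, then 82.4 and 154 FPKM, and Psmb10 at 206 and 202 FPKM, then 136 and 222 FPKM. Psme1 (chr14:55578494-55581527) and Psme2 (chr14:55587440-55591101), which lie close together, were at 291 and 287 FPKM, then 220 and 305 FPKM, and at 477 and 473 FPKM, then 320 and 522 FPKM. For all 5 genes replicate 1 was below both vehicle libraries and replicate 2 above both, so that the direction of the fold change turned without replicate 1. Psme2 has a near copy, Psme2b, at 25.6 to 42.2 FPKM in BMDMs, to which reads could be assigned. Psme3 was at 22.3 and 20.2 FPKM, then 25.6 and 21.8 FPKM, and Psme4 at 21.9 and 22.3 FPKM, then 24.7 and 21.2 FPKM. Pomp was at 142 and 136 FPKM, then 151 and 146 FPKM. Macrophage markers summed to 6689 and 6517 FPKM with vehicle, 7560 FPKM in replicate 1 and 6625 FPKM in replicate 2, and their part in these values was not tested.

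The ratio of immunoproteasome to constitutive subunit was therefore low in 1 of the BMDM auranofin libraries. Psmb8 over Psmb5 was 4.92 and 4.47 with vehicle, 2.26 in replicate 1 and 4.53 in replicate 2. Psmb9 over Psmb6 was 0.422 and 0.434, then 0.248 and 0.449, and Psmb10 over Psmb7 was 1.96 and 1.91, then 0.905 and 1.97. The exact permutation p was 0.667 for Psmb8 over Psmb5 and 1 for each of the other ratios (two-sided, n = 2 against 2). Immunoproteasome subunits made up 55.0% and 55.1% of the FPKM of the 6 catalytic genes with vehicle, 42.3% in replicate 1 and 55.6% in replicate 2.

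**Figure D3:**
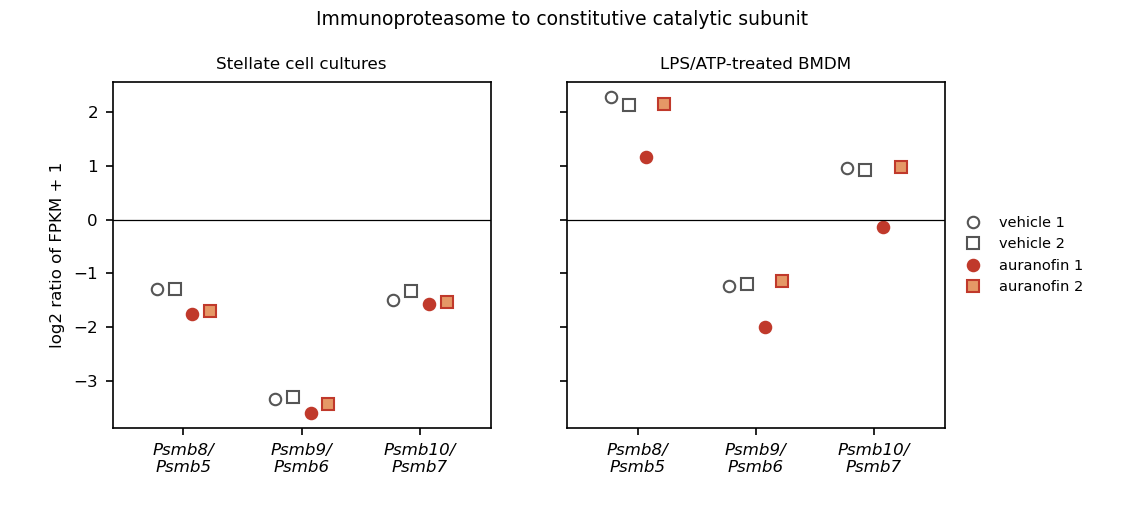
Log2 ratio of each immunoproteasome subunit to the constitutive catalytic subunit it replaces, from FPKM + 1, in each library of HSC cultures (left) and LPS/ATP-treated BMDMs (right). In HSC cultures both auranofin libraries lie below both vehicle libraries for each ratio, while in BMDMs only auranofin replicate 1 does so.

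Since the 2 tables share no libraries, their differences can be set side by side. In 30 of the 39 genes the HSC log2 fold change and the log2 difference of BMDM auranofin replicate 1 were both above 0, and in 3 (Psmb8, Psmb9 and Psme1) both were below, where 40.5% and 17.2% of the 8963 genes tested in both tables were both above and both below. The correlation across the 39 genes was r = 0.72 (Spearman rho = 0.67), and across the 34 genes other than Psmb8, Psmb9, Psmb10, Psme1 and Psme2 it was r = 0.48 (rho = 0.51). Across these 8963 genes it was r = 0.13 (rho = 0.19). With BMDM auranofin replicate 2 the 39 genes gave r = -0.22, although 29 were again above 0 in both (30.0% of the 8963 genes). These are descriptions across genes, which are not independent replicates, and all points of a table share its libraries. Psmd3, Psmd1 and Psmd11 had the largest log2 differences of the 39 genes in BMDM replicate 1 (1.11, 1.00 and 0.91). Their HSC log2 fold changes were 0.27, 0.27 and 0.37, while Psma5, the largest in HSCs, was at 0.50 in BMDM replicate 1. Psmd1, Psmd11, Psmd14 and Psma5 were singled out for BMDMs after their values were seen.

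**Figure D4:**
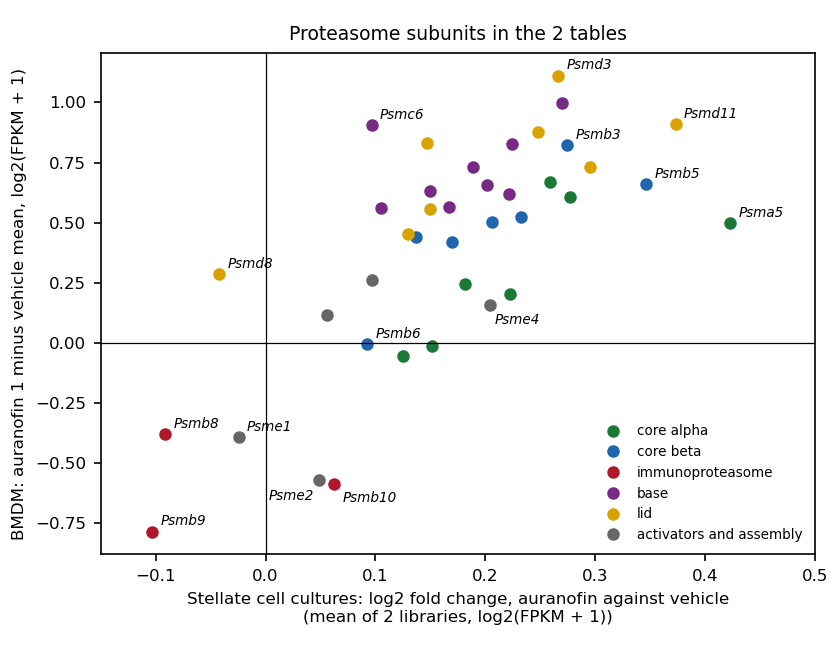
Each point is 1 proteasome gene, with its log2 fold change in HSC cultures (auranofin against vehicle, mean of 2 libraries) on the x axis and its log2 difference between BMDM auranofin replicate 1 and the vehicle mean on the y axis, coloured by subcomplex. Psmb8, Psmb9 and Psme1 lie below 0 on both axes, and 30 genes lie above 0 on both.

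A list of 33 genes that act with the proteasome was followed beside the subunits: its transcription factor and that factor's processing enzymes, assembly chaperones, ubiquitin receptors, deubiquitinases, ubiquitin genes and the segregase Vcp with its cofactors. Of these, 32 were listed in both tables. In HSCs 2 rose (1.24% of all genes) and 0 fell (1.09% of all genes). Adrm1, the ubiquitin receptor of the base that also docks the deubiquitinase Uchl5, was at 63.2 and 62.2 FPKM with vehicle, then 88.1 and 84.1 FPKM with auranofin (log2 fold change 0.45 ± 0.04, adjusted p = 0.00745), next to 0.42 ± 0.04 for Psma5, the highest of the subunit genes. Vcp, which pulls ubiquitin-tagged proteins out of membranes and complexes, was at 241 and 237 FPKM, then 290 and 285 FPKM (0.26, adjusted p = 0.0199). The count was 0 with each gene's own variance (where 6 were higher at an unadjusted p under 0.05), and 1 without either auranofin library. The median over the list was 0.03. Nfe2l1 was at 86.5 and 86.0 FPKM with vehicle, then 87.2 and 85.0 FPKM with auranofin, and the deubiquitinases Usp14 (20.7 and 20.6 FPKM, then 21.2 and 20.6 FPKM) and Uchl5 (11.8 and 11.4 FPKM, then 10.9 and 11.3 FPKM) were likewise not called (adjusted p = 0.983, 0.871 and 0.571 for the 3 genes).

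In BMDMs 0 of the 32 passed the adjusted test and 0 had an unadjusted p under 0.05 (limma). In auranofin replicate 1, 15 were at least 1.5-fold above the vehicle mean (15.2% of all genes), and in replicate 2, 0 were (0.379% of all genes). Of those named here, Zfand2a, a stress-inducible proteasome-associated protein, had the highest log2 difference in replicate 1. It was at 23.1 and 22.9 FPKM with vehicle, 103 FPKM in replicate 1 and 23.2 FPKM in replicate 2. Psmd5, a base assembly chaperone, was at 6.35 and 6.05 FPKM, then 22.8 and 7.26 FPKM, and Zfand5, a zinc finger protein that activates the proteasome, at 17.3 and 17.1 FPKM, then 56.8 and 18.2 FPKM. These 3 were chosen after their values were seen. Adrm1 (40.9 and 45.3 FPKM, then 105 and 44.9 FPKM) and Vcp (103 and 105 FPKM, then 245 and 102 FPKM), the genes that rose in HSCs, were also high in replicate 1 and near vehicle in replicate 2. Usp14 was at 12.1 and 12.3 FPKM, then 24.2 and 8.53 FPKM, so its auranofin libraries lay on opposite sides of vehicle, and Uchl5 at 8.54 and 8.11 FPKM, then 11.9 and 8.15 FPKM. Nfe2l1 was at 109 and 108 FPKM, then 102 and 107 FPKM.

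**Figure D5:**
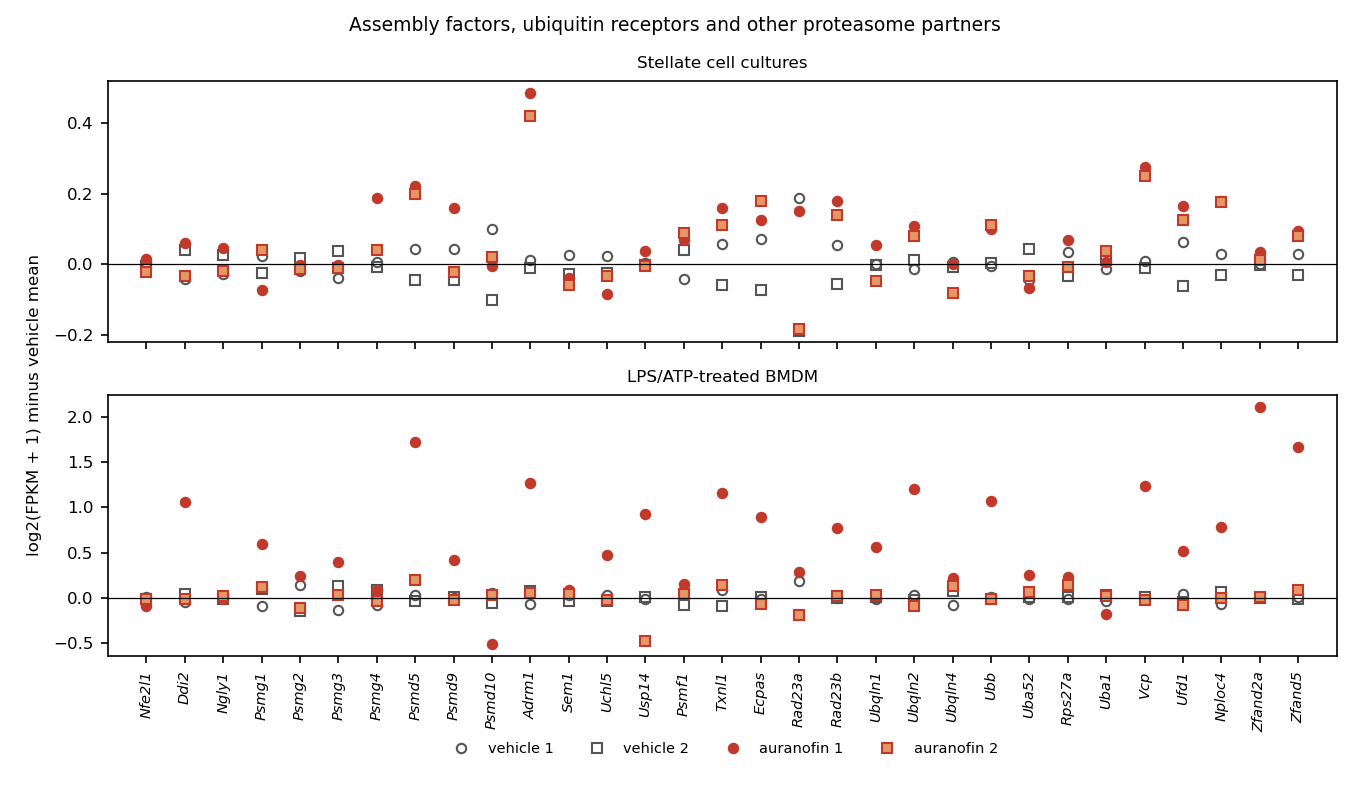
Level of 31 of the 32 listed proteasome partners in HSC cultures (top) and LPS/ATP-treated BMDMs (bottom), as log2(FPKM + 1) minus the mean of the vehicle libraries, with 1 symbol per library and a separate y axis for each cell type. In HSCs Adrm1 and Vcp are the highest in both auranofin libraries, and in BMDMs the high values are those of auranofin replicate 1.

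Genes of MHC class I antigen presentation, which the immunoproteasome serves and many of which interferon also induces, were followed as a list of 13. All were listed in both tables. In HSCs 0 passed the adjusted test, with 1 higher and 2 lower at an unadjusted p under 0.05 (limma, 8.57% and 9.22% of all genes). Both auranofin libraries were above both vehicle libraries in 6 (26.2% of all genes) and below in 3 (23.9% of all genes). The 1 that was higher was H2-D1, a class I heavy chain, at 685 and 712 FPKM, then 786 and 765 FPKM (log2 fold change 0.15, adjusted p = 0.11), a gene chosen after its values were seen. Irf1, the interferon-responsive transcription factor of these genes, was at 37.0 and 38.1 FPKM with vehicle, then 32.8 and 32.6 FPKM with auranofin (log2 fold change -0.19, adjusted p = 0.0643), and Nlrc5, the class I transactivator, at 3.47 and 3.66 FPKM, then 2.96 and 3.24 FPKM (-0.15, adjusted p = 0.311). Both were lower in both auranofin libraries. The peptide transporter Tap1 was at 12.2 and 13.1 FPKM, then 13.4 and 13.1 FPKM. In BMDMs 0 passed the test, and 0 at an unadjusted p under 0.05. Auranofin replicate 1 lay below both vehicle libraries in 9 genes (29.6% of all genes) and above both in 4 (64% of all genes). Among these 4 was Calr, a chaperone of class I molecules, at 414 and 413 FPKM, then 446 and 411 FPKM (also chosen after its values were seen). Tap1 was at 318 and 330 FPKM with vehicle, 197 FPKM in replicate 1 and 342 FPKM in replicate 2, Irf1 at 696 and 671 FPKM, then 466 and 664 FPKM, and Nlrc5 at 68.9 and 68.3 FPKM, then 39.1 and 61.0 FPKM. In replicate 1, 3 of the 13 were at least 1.5-fold lower (8.07% of all genes) and 0 at least 1.5-fold higher (15.2% of all genes).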

How the data were processed

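Libraries were made with the TruSeq Stranded mRNA kit. The authors deposited FPKM values per gene and library in 2 tables, on mm10 with RefSeq transcripts, and per the submitters' processing notes used FastQC 0.11.7, Trimmomatic 0.38, HISAT2 2.1.0 and StringTie 1.3.4d. The tables hold no counts, so depth was estimated from the steps of 1 fragment in values under 0.2 FPKM. Coordinates and promoters came from RefSeq (GRCm38), in which all 39 genes were matched by gene identifier, and 11 of them overlap another annotated gene.

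Each table was tested alone with limma 3.58.1 (lmFit, eBayes with trend, R 4.3.3) on log2(FPKM + 1), for genes that averaged 1 FPKM or more, so that fold changes of low genes are understated. A gene was called at a Benjamini-Hochberg adjusted p under 0.05 over all genes tested. All 39 genes passed the filter in both tables. Catalytic ratios were compared by an exact permutation test over libraries. The fit was tested on simulated data. Genes named were the catalytic subunits, activators and Pomp, every called gene, and the highest and lowest of each subcomplex by log2 fold change. For the partner and presentation lists they were Nfe2l1, Usp14, Uchl5, Tap1, Irf1, Nlrc5 and called genes. Other names were chosen after their values were seen. The members and lists were chosen with earlier results of these data known, so no list is independent evidence. Of 33 partners, Paaf1 was not listed, and 1 other is not reported here by itself. Alternatives were a pseudocount of 0.1, no filter, a mean of at least 5 FPKM, quantile normalization, centring on the median, no moderation, no trend, a block on the replicate number, 1.5-fold with an unadjusted p under 0.05 as the threshold, and each library left out. Other tools were scipy 1.17.1, pandas 2.3.3, numpy 2.4.6 and matplotlib 3.10.9, in Python 3.11.15.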

Additional observations from a re-analysis of the deposited data

How the results depend on the processing

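In HSCs 10 proteasome genes and 2 partners were called higher. The counts were 1 and 1 with no filter on low values, 2 and 1 without trend, 0 and 0 with no moderation, and 0 and 0 at 1.5-fold with an unadjusted p under 0.05. They were 10 to 12 genes under a pseudocount of 0.1, a mean of at least 5 FPKM, quantile normalization and centring, and these included all 10. Leaving out 1 library at a time gave 2 to 16 proteasome genes and 1 to 3 partners in HSCs, and in BMDMs 0 to 30 higher and 0 to 5 lower, with 0 to 22 partners higher and 0 to 2 lower. The BMDM values above 0 came without auranofin replicate 2. The median log2 fold change of the 39 genes was 0.14 to 0.19 in HSCs and 0.05 to 0.52 in BMDMs over the same settings, and the mean log2 difference of the 3 catalytic ratios was -0.30 to -0.22 and -0.97 to 0.02. The sign turned in HSCs for Psmd8 (-0.091 to 0.0063), Psme1 (-0.071 to 0.022), Psme2 (-0.0031 to 0.10) and Pomp (-0.0024 to 0.11). In BMDMs it turned for Psma6 (-0.056 to 0.059), Psmb6 (-0.017 to 0.050), Psmb8 (-0.38 to 0.042), Psmb9 (-0.79 to 0.11), Psmb10 (-0.59 to 0.12), Psme1 (-0.39 to 0.078), Psme2 (-0.57 to 0.14) and Psme4 (-0.060 to 0.16). Without auranofin replicate 2 it also turned for Psma2 (-0.012). Without auranofin replicate 1 it also turned for Psmd1 (-0.070), Psmc1 (-0.063), Psmd4 (-0.033), Psmc2 (-0.013) and Psmd14 (-0.0035). Quantile normalization gave -0.0063 for Psma6 and -0.024 for Psmb6 in BMDMs. Centring on the median gave -0.091 for Psma6, -0.076 for Psmb6, -0.044 for Psme4 and -0.0023 for Pomp there. Centring also turned the sign of Psma2. Apart from the library left out, the cause was not tested.

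The labels give the replicates a number in each group. Deviations of libraries with the same number correlated at 0.11 in HSCs and -0.06 in BMDMs, with 2 numbers only, so the number was not taken to pair them. With the replicate number as a block, 14 proteasome genes were called higher in HSCs, all 10 of the unblocked fit among them, with 2 partners higher, and 0 genes were called in BMDMs, and this block changed no other call on these counts. With 2 libraries in a group, 1 library can decide a value.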

Other observations

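Psme2b, the near copy of Psme2, was at 5.19 and 4.36 FPKM with vehicle, then 3.76 and 5.53 FPKM with auranofin, in the HSC libraries, with overlapping groups. In the BMDM libraries it was at 36.9 and 42.2 FPKM, then 25.6 and 35.6 FPKM, so that both auranofin values lay below both vehicle values, while Psme2 itself was low in replicate 1 and high in replicate 2 (adjusted p = 0.721 for Psme2b, limma with Benjamini-Hochberg adjustment). Psmb11, the beta subunit of the thymus proteasome, was at 0.0105, 0, 0 and 0.0164 FPKM in the HSC libraries (vehicle, then auranofin). The partner Psmd10, a base assembly chaperone, was low in BMDM auranofin replicate 1, where most partners were high, at 39.2 and 36.5 FPKM with vehicle, then 26.2 and 38.5 FPKM. These genes were chosen after values were seen.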
